A study of Mus musculus with 6 samples.

Results

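The genes described here build the cornified envelope of the epidermis and form much of the epidermal differentiation complex, a dense cluster of such genes that lies on mouse chromosome 3. They were chosen by name as 44 genes in 8 groups by role: 2 envelope precursors, 4 filaggrin-like genes, 8 Sprr genes, 15 genes of the Lce group (14 Lce genes and Crct1), 4 enzymes, 3 genes of the plakin scaffold, 6 secreted and junctional genes and 2 regulators. Of the 44, 29 lie on chromosome 3 and 15 on other chromosomes. A value was taken only from a probe set that the platform annotation gives to exactly 1 gene, and 40 of the 44 had one, out of 18193 genes measured this way. Flg2, Sprr2b and Sprr4 had no probe set by this rule, and Sprr2a1 had only probe sets it shares with its near-identical neighbours Sprr2a2 and Sprr2a3.

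RNA came from skin tumours of mice deficient in E-FABP (EKO), the epidermal fatty acid binding protein encoded by Fabp5, and of wild-type (WT) mice. Both groups received DMBA, a mutagen that initiates tumours in mouse skin, together with the tumour promoter TPA, a phorbol ester, over 5 months, so WT here means a treated tumour and not untreated skin. The tumours were digested to single cells, and 3 EKO and 3 WT biological replicates gave 1 Affymetrix 3' array each, read as log2 values on which 1 unit is a doubling of signal. The labels do not say whether a replicate held cells of more than 1 mouse or tumour. Spreads among EKO or WT tumours below are therefore spreads among arrays. The labels call the material keratinocytes, although nothing in them describes a sort for such cells, and name no strain, age, sex or allele. Fabp5 read 8.20, 8.30 and 7.98 in EKO replicates 1, 2 and 3, against 14.82, 14.94 and 14.80 in the WT replicates, in keeping with the genotype labels. Array medians ran from 5.41 to 5.43. With 3 arrays a group, precision is limited by their number.

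As keratinocytes leave the basal layer they stop dividing and, in the granular layer, make proteins that are laid down under the cell membrane. Transglutaminases join these proteins to each other by covalent bonds, and the resulting envelope replaces the membrane of the dead corneocyte. Loricrin and involucrin are main precursors, Sprr proteins act as cross-bridges, Lce proteins are added late, and filaggrin bundles keratin filaments before it is broken down to moisturising amino acids. In mouse skin treated with phorbol ester, a thickened epidermis with raised Sprr expression is well known, and squamous papillomas keep much of this programme.

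The start regions of a few members are shown first, because the members that stand apart below are close relatives of members that do not. Each is the 250 bases before the start of the gene in RefSeq's annotation of GRCm38.p6, read 5' to 3' on the gene's own strand. Capitals mark matches to TATAA, the core of a TATA box, and to TGANTCA, the letters bound by AP-1 factors and known as the TPA response element, each searched on both strands. Matches may overlap, as at the TTATAA close to the start of the Sprr2 genes. Sprr2k at chr3:92432332-92432581 (+) and Sprr2h at chr3:92385435-92385684 (+) are the most alike of the Sprr start regions:
Sprr2k: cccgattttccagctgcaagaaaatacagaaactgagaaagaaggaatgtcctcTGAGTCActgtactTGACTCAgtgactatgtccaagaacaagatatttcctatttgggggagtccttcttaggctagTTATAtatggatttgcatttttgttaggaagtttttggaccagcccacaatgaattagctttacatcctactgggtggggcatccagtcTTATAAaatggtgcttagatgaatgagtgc
Sprr2h: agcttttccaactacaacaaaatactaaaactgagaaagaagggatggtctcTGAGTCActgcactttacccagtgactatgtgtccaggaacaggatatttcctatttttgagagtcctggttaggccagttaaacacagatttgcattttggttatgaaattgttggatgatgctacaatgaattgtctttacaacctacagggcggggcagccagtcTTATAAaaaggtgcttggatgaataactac

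Lce1m at chr3:93019062-93019311 (-) is set beside Lce1a2 at chr3:92670316-92670565 (-), another Lce1 gene, and Lce3c at chr3:92944236-92944485 (+), of the Lce3 branch:
Lce1m: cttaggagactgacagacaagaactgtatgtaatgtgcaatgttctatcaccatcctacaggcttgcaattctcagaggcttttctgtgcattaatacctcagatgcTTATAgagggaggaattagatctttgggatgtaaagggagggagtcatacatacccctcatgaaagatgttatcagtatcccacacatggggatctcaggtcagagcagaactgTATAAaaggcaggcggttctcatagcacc
Lce1a2: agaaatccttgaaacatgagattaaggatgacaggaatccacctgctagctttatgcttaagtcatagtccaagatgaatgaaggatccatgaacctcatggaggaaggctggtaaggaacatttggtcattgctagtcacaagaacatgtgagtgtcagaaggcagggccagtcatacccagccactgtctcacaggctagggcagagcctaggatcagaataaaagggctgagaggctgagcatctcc
Lce3c: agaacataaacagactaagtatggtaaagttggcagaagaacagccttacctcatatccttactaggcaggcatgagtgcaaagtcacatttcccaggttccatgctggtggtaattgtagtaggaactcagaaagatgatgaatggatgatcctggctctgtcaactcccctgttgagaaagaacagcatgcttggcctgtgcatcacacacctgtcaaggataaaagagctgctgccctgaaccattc

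Lor, the loricrin gene, at chr3:92083143-92083392 (-) has both motifs close together:
Lor: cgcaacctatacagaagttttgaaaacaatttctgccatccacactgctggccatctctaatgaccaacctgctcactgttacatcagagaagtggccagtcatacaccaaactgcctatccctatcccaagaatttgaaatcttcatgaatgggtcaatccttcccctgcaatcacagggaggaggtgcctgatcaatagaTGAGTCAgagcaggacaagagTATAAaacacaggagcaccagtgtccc

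RefSeq start regions were found for 38 of the 44 genes, 42 windows in all, since 3 genes have more than 1 start. TGANTCA was present in 40.5% of these windows, against 6.75% of all 32851 start regions of the mouse table. It was found in 6 of 8 Sprr windows, both envelope precursors, 3 of 4 filaggrin-like genes and 5 of 8 windows of the secreted and junctional genes. No window of the 13 in the Lce group and none of the 5 of the enzymes held it. TATAA was present in 45.2% of the members' windows and 22.8% of all, with 6 of 8 in the Sprr genes, all 4 filaggrin-like genes and 3 of 13 in the Lce group. TGACNNNGC, the core of the antioxidant response element bound by Nrf2, can share its first letters with TGANTCA and was present in 11.9% of the members' windows and 10.2% of all. A match is only a run of letters, and absence of a match says nothing about the factor.

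The start regions of Sprr2h and Sprr2k were 80.6% identical in a global alignment. Sprr2k held 2 matches to TGANTCA, starting 196 and 182 bases before the start, and Sprr2h held 1, starting 198 bases before it. Lce1m differed from the rest of its branch. Its window was between 47.7% and 50.4% identical to those of 8 other Lce1 genes, which were between 56.5% and 85.6% identical among themselves. Windows of Sprr genes set against windows of the Lce group, which are not related in this way, had a median identity of 47.8%.

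The envelope programme was strongly expressed in all 6 arrays. The log2 values of 33 of the 40 measured genes lay above percentile 90 of all probe sets in every array, and those of 30 lay above percentile 95. Such percentiles compare signals of different probe sets and do not measure transcript numbers. Each member enters by its brightest probe set, while all probe sets include dimmer ones of the same genes and unnamed ones. Krtdap, the gene of the keratinocyte differentiation associated protein, had the highest signals, from 14.42 to 14.61 in EKO and from 14.52 to 14.72 in WT tumours. These lie close to the array maxima of 14.91 to 14.97, where differences can be compressed. Keratinocytes were present in the material, as the label says. Krt14, a basal keratin, read 14.70 to 14.74 in EKO and 14.66 to 14.80 in WT tumours. The suprabasal keratin Krt10 read 14.19 to 14.51 in EKO and 14.17 to 14.35 in WT tumours. These keratins do not show that other cells were absent, and markers of such cells are given below. Krt2, a keratin of the upper epidermis, was near the floor in most arrays, below the lower quartile in 4 of 6 (EKO replicate 1 and all WT replicates). It read 4.06 and 5.85 in EKO replicates 2 and 3, the latter above that array's median of 5.43.

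EKO and WT tumours were compared by limma over all 18193 genes with Benjamini-Hochberg adjustment. No member passed an adjusted p of 0.05, against 0.0055% of all genes, a share that stands for Fabp5 alone. The adjusted p of the members ran from 0.608 for Lce1m to 0.995 for Lce3b. At an unadjusted p under 0.05, 2 members were higher (Sprr2k and Lce1m, 5% of the 40) and 1 was lower (Tgm5, 2.5%), beside 3.44% of all genes higher and 3.7% lower. The EKO and WT values did not overlap for 1 member, Lce1m, which was higher in EKO (2.5%, against 5.78% of all genes), and for 0 members that were lower (against 6.19% of all genes). These shares are near those of all genes. In RNA from whole cell suspensions, fewer cells of a type and less RNA per cell cannot be told apart.

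The data limited how large most differences could be. The 95% interval of the difference, from limma and not adjusted for the number of genes, lay between -1 and 1 on the log2 scale for 36 of 40 members, beside 94.7% of all genes. For the other 4, Sprr2k, Lce1m, Lce3b and Tgm5, it reached past 1 in size. The EKO mean was higher for 32 of 40 members and lower for 8, while close to 50% of all genes had a higher EKO mean. This count rested largely on EKO replicate 3 and WT replicate 3. It was 20 of 40 without EKO replicate 3 (49.4% of all genes) and 23 of 40 without WT replicate 3 (48.8% of all genes), and between 28 and 34 of 40 with any other array left out. The median difference, EKO minus WT, was 0.10 over the members and 0.00 over all genes. The members share arrays, neighbours and in part probe sequences, so this count is a description. In the plot of differences most intervals cross 0, and Sprr2k stands out by both size and width.

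**Figure D1:**
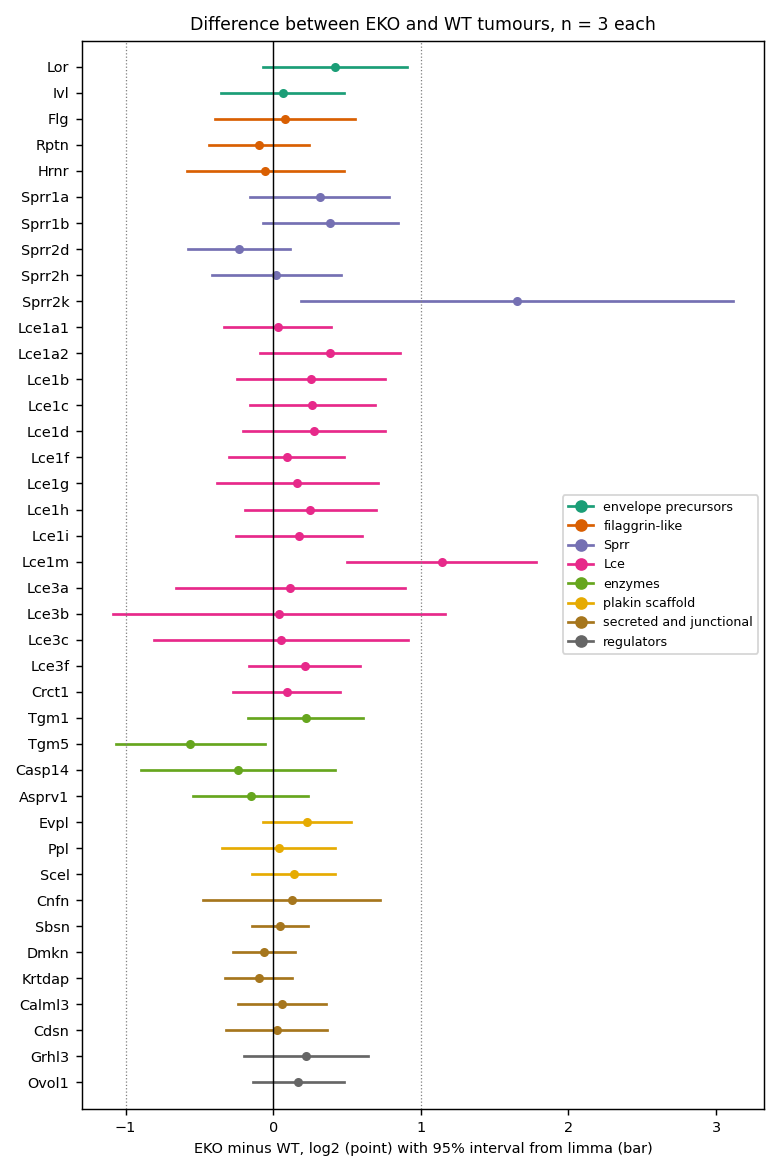
Difference between EKO and WT tumours for each of the 40 measured members (points, EKO minus WT on the log2 scale; bars, 95% intervals from limma; 3 arrays per group; dotted lines at -1 and 1; colours, the 8 groups). Most points lie slightly right of 0, Sprr2k (1.65) and Lce1m (1.14) lie farthest right, and Tgm5 (-0.56) farthest left.

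Among the envelope precursors, Lor and Ivl, the involucrin gene, did not pass. Lor read 13.52, 13.88 and 14.20 in EKO replicates 1, 2 and 3, against 13.36, 13.78 and 13.23 in the WT replicates. WT replicate 2 lay inside the EKO range, so the groups overlapped (difference 0.42, SE 0.207, limma adjusted p = 0.720). The other 2 Lor probe sets differed by 0.48 and 0.55, in the same direction. Ivl was almost level, averaging 12.13 ± 0.129 in EKO tumours against 12.06 ± 0.348 in WT tumours (SD, n = 3 each), and its dimmer probe set had the opposite sign (-0.19).

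The filaggrin-like genes encode long S100-fused proteins of keratohyalin granules, and none of the 3 measured moved beyond its replicate spread. Flg, the profilaggrin gene, averaged 12.39 ± 0.248 in EKO tumours against 12.31 ± 0.356 in WT tumours (SD, n = 3 each). Repetin (Rptn) differed by -0.09 (95% interval -0.44 to 0.25) and hornerin (Hrnr) by -0.05 (-0.58 to 0.48). In all 3 genes the highest value of the 6 was WT replicate 2. A pair of further Rptn probe sets read near the floor, between 3.21 and 4.16 in the 6 arrays, and carry no usable level.

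The Sprr genes encode small proline-rich cross-bridging proteins, and of the 5 measured Sprr2k differed most. Sprr2k read 10.52, 8.53 and 11.10 in EKO replicates 1, 2 and 3, against 8.34, 8.87 and 7.97 in WT replicates 1, 2 and 3. EKO replicates 1 and 3 lay well above every WT value, but EKO replicate 2 lay among them, so the groups overlapped. The means gave a 3.14-fold ratio (log2 difference 1.65, SE 0.621, 95% interval 0.19 to 3.12), which did not pass (limma adjusted p = 0.662). Without EKO replicate 2 the difference was 2.41 (SE 0.296, limma adjusted p = 0.0607), with a range of adjusted p from 0.0607 to 0.998 over all alternatives.

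Sprr2h, the closest relative of Sprr2k by start region, did not share this pattern of values. It read 13.02, 12.64 and 13.19 in EKO replicates and 13.12, 13.05 and 12.61 in WT replicates, a difference of 0.02 (95% interval -0.41 to 0.46). Its signals lay in the top percent of all probe sets, unlike those of Sprr2k, and its probe set name ends in _s, which marks probes shared by transcripts of several genes. Sprr2d read 13.63, 13.68 and 13.85 in EKO and 14.16, 14.03 and 13.65 in WT replicates, with a lower EKO mean (-0.23, limma adjusted p = 0.781) and overlapping groups. Whether the difference of Sprr2k is larger than that of these 2 genes was not tested.

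Both Sprr1 genes, which encode cross-bridging proteins of the same family, had higher EKO means within overlapping groups. Sprr1a read 13.45, 13.29 and 13.79 in EKO and 12.94, 13.06 and 13.58 in WT replicates (difference 0.31, 95% interval -0.16 to 0.78). Sprr1b read 13.22, 12.95 and 13.52 in EKO and 12.94, 13.09 and 12.51 in WT replicates (0.39, -0.07 to 0.85). Only WT replicate 3 of Sprr1a and WT replicate 2 of Sprr1b reached into the EKO range.

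The 3 probe sets that Sprr2a1 shares with Sprr2a2 or with Sprr2a2 and Sprr2a3 ran the other way. The brightest read 14.37, 14.37 and 14.40 in EKO and 14.73, 14.88 and 14.51 in WT replicates, so that every EKO value lay below every WT value. These signals, again close to the array maxima, differed by -0.33 (SE 0.110, limma adjusted p = 0.644 over all probe sets). The other 2 differed by -0.40 (no overlap) and -0.68 (overlapping by EKO replicate 2). Which Sprr2a gene gives these signals cannot be told apart.

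In the plot of chosen members the Sprr2k values of EKO tumours spread over more than 2 log2 units, while those of Sprr2h and Sprr2d stay together.

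**Figure D2:**
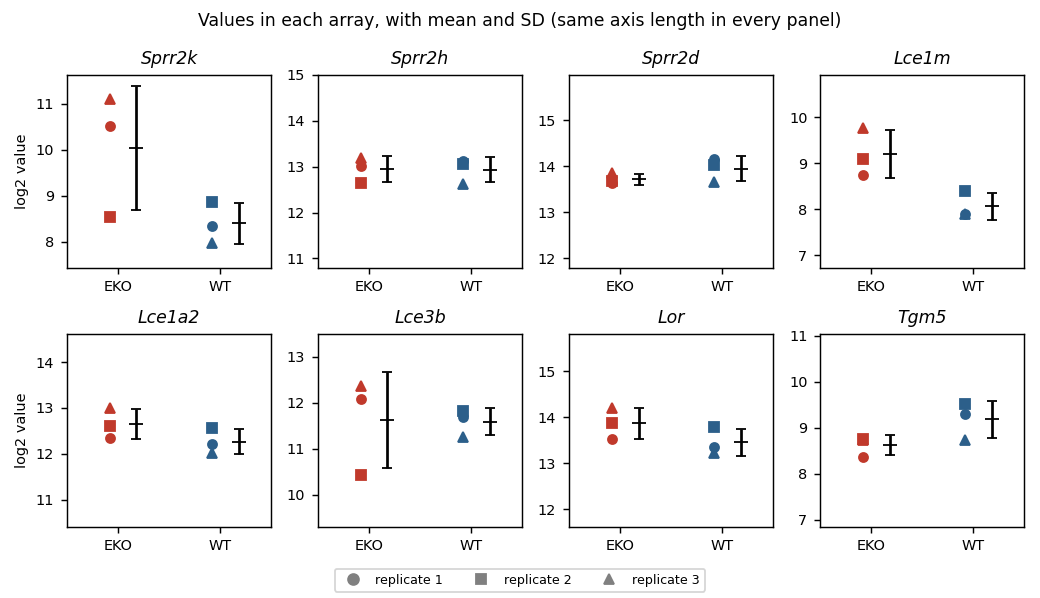
Log2 values of 8 members in each array (coloured points, shape by replicate; EKO left, WT right) with the mean and SD of each group (black, n = 3); every panel has the same axis length. EKO replicate 2 (square) lies among the WT values of Sprr2k and below all WT values of Lce3b, and Lce1m is the 1 gene whose groups do not overlap.

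The Lce genes encode small late cornified envelope proteins rich in cysteine and glycine. All 10 measured Lce1 genes and all 4 Lce3 genes had a higher EKO mean, with a median difference of 0.26 for Lce1 and 0.08 for Lce3, and 0 passed. These counts fell to 7 of 10 Lce1 genes and 1 of 4 Lce3 genes without EKO replicate 3, and to the same counts without WT replicate 3. Without EKO replicate 1, 1 of 4 Lce3 genes and all 10 Lce1 genes had a higher EKO mean. Lce1m read 8.74, 9.10 and 9.77 in EKO replicates 1, 2 and 3, against 7.90, 8.40 and 7.89 in WT replicates 1, 2 and 3. It was the only measured member with each EKO value above each WT value, a 2.20-fold ratio of means (log2 difference 1.14, SE 0.271, limma adjusted p = 0.608). Its difference ran from 0.85 to 1.37 over the alternatives, with an adjusted p from 0.315 to 0.998. The Lce1m probe set ends in _s too, so that other transcripts may add to it.

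The other 9 Lce1 genes differed by 0.03 (Lce1a1) to 0.39 (Lce1a2). Lce1a2 read 12.35, 12.61 and 13.00 in EKO and 12.21, 12.56 and 12.02 in WT replicates (difference 0.39, 95% interval -0.09 to 0.86). Across all 10 Lce1 genes the EKO tumours kept 1 order: each gene was lowest in EKO replicate 1 and highest in EKO replicate 3. In WT tumours all 10 were lowest in replicate 3, and 9 of 10 were highest in replicate 2. Several of their probe sets (Lce1a1, Lce1d, Lce1h and Lce1i) end in _x, which marks probes that may bind related transcripts, so they are not independent readings.

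The Lce3 genes, known in human skin for their induction after barrier injury, followed another order. All 4 were lowest among EKO tumours in replicate 2, and in EKO replicates 1 and 3 all 4 lay above every WT value. Lce3b read 12.09, 10.43 and 12.36 in EKO and 11.68, 11.83 and 11.26 in WT replicates, so that the EKO values lay on both sides of the WT values (difference 0.04, 95% interval -1.08 to 1.16). Lce3c read 13.80, 12.53 and 14.00 in EKO and 13.46, 13.55 and 13.16 in WT replicates (0.05, -0.81 to 0.91). Their SDs were 1.04 and 0.796 in EKO tumours, next in width to that of Sprr2k, against 0.296 and 0.207 in WT tumours. Lce3a and Lce3f had the same order and narrower spreads, with differences of 0.11 and 0.21. The probe sets of Lce3b and Lce3c end in _x too, so the 4 Lce3 genes may not be independent readings.

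Crct1, a cysteine-rich gene of the cluster that neighbours Lce1m, was near level. Crct1 averaged 13.48 ± 0.280 in EKO tumours against 13.39 ± 0.126 in WT tumours (SD, n = 3 each). Around Sprr2k (1.65), the nearby pseudogene Sprr2j-ps differed by 1.75, Sprr2i by 0.51 and Sprr1b, on the other side, by 0.39. Sprr3, which lies between Sprr1b (0.39) and Sprr1a (0.31), differed by 4.36.

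**Figure D3:**
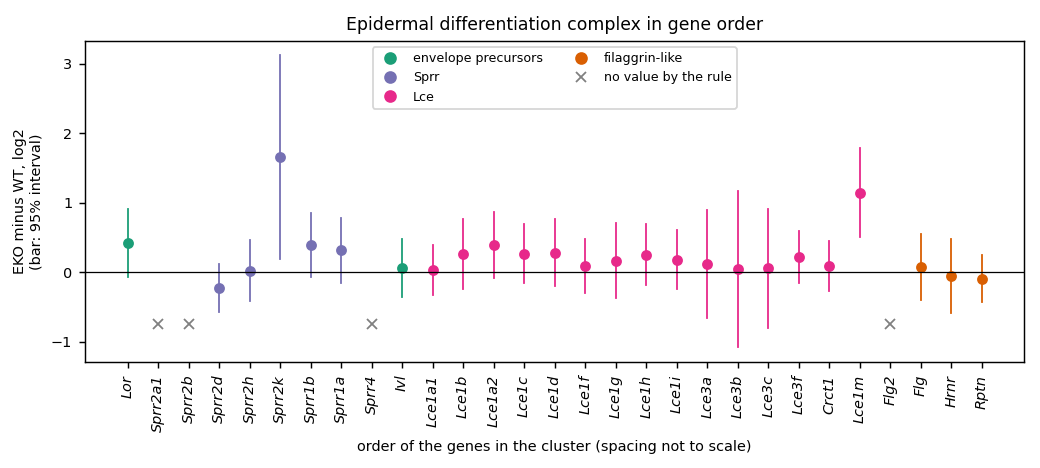
Difference EKO minus WT on the log2 scale (points) with 95% intervals (bars) for members on chromosome 3, placed in gene order with equal spacing; crosses mark the 4 genes with no value by the rule. Sprr2k (1.65) and Lce1m (1.14) stand above the members beside them, and every gene of the Lce group lies above 0, most with intervals that cross it.

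The enzymes of cornification had lower EKO means in 3 of 4 cases. Tgm5, a transglutaminase that joins envelope proteins, read 8.37, 8.76 and 8.74 in EKO and 9.30, 9.52 and 8.73 in WT replicates. WT replicate 3 lay within the EKO range, and the difference of -0.56 (SE 0.215, 95% interval -1.07 to -0.05) did not pass (limma adjusted p = 0.662). Tgm1, the main transglutaminase of the epidermis, differed in the other direction, with 10.03, 9.69 and 10.30 in EKO and 9.68, 9.97 and 9.72 in WT replicates (0.22, 95% interval -0.17 to 0.61). Casp14, the caspase of the granular layer that takes part in filaggrin breakdown, differed by -0.24 and Asprv1, the retroviral-like protease that processes profilaggrin, by -0.15. The difference of Tgm5 ran from -0.79 without WT replicate 3, the array that overlapped, to -0.39 without WT replicate 2, with a limma adjusted p from 0.220 to 0.998 over the alternatives.

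The plakins Evpl (envoplakin) and Ppl (periplakin) and sciellin (Scel), which form the first scaffold under the membrane, differed by 0.23, 0.04 and 0.14. The interval of each lay within -0.34 and 0.53. Among the secreted and junctional genes, Sbsn (suprabasin), Dmkn (dermokine) and Krtdap, 3 adjacent genes of secreted epidermal proteins, had the narrowest EKO spreads. They differed by 0.05, -0.06 and -0.10, with SDs of at most 0.102 in either group and signals near the array maxima. Calml3, a calmodulin-like gene, differed by 0.06 and Cdsn, which encodes the corneodesmosome protein corneodesmosin, by 0.02. Cnfn (cornifelin) read 11.28, 10.48 and 11.56 in EKO and 10.95, 11.05 and 10.93 in WT replicates, with EKO replicate 2 below and the other EKO replicates above all WT values.

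The regulators were near level. Grhl3, a grainyhead-like factor needed for barrier formation in mouse embryos, read 9.07, 9.07 and 9.45 in EKO and 9.07, 9.21 and 8.64 in WT replicates (0.22, 95% interval -0.20 to 0.64). Ovol1, a zinc finger repressor that helps keratinocytes leave the cell cycle, read 9.28, 9.70 and 9.71 in EKO and 9.35, 9.42 and 9.41 in WT replicates (0.17, -0.14 to 0.48). EKO replicate 1 of Ovol1 was below all WT values and the other EKO replicates above them.

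EKO replicate 3 had the highest of the 6 values in 27 of 40 members and the highest of the EKO values in 34, while 34.3% of all genes were highest there among EKO arrays. In WT tumours, replicate 2 was the highest in 32 of 40 members (29.2% of all genes) and replicate 3 the lowest in 29 (40.1%). The SD among EKO tumours was larger than that among WT tumours in 29 of 40 members, and in 52.8% of all genes. The median SD of the members was 0.280 in EKO and 0.235 in WT tumours, against 0.133 and 0.123 over all genes.

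**Figure D4:**
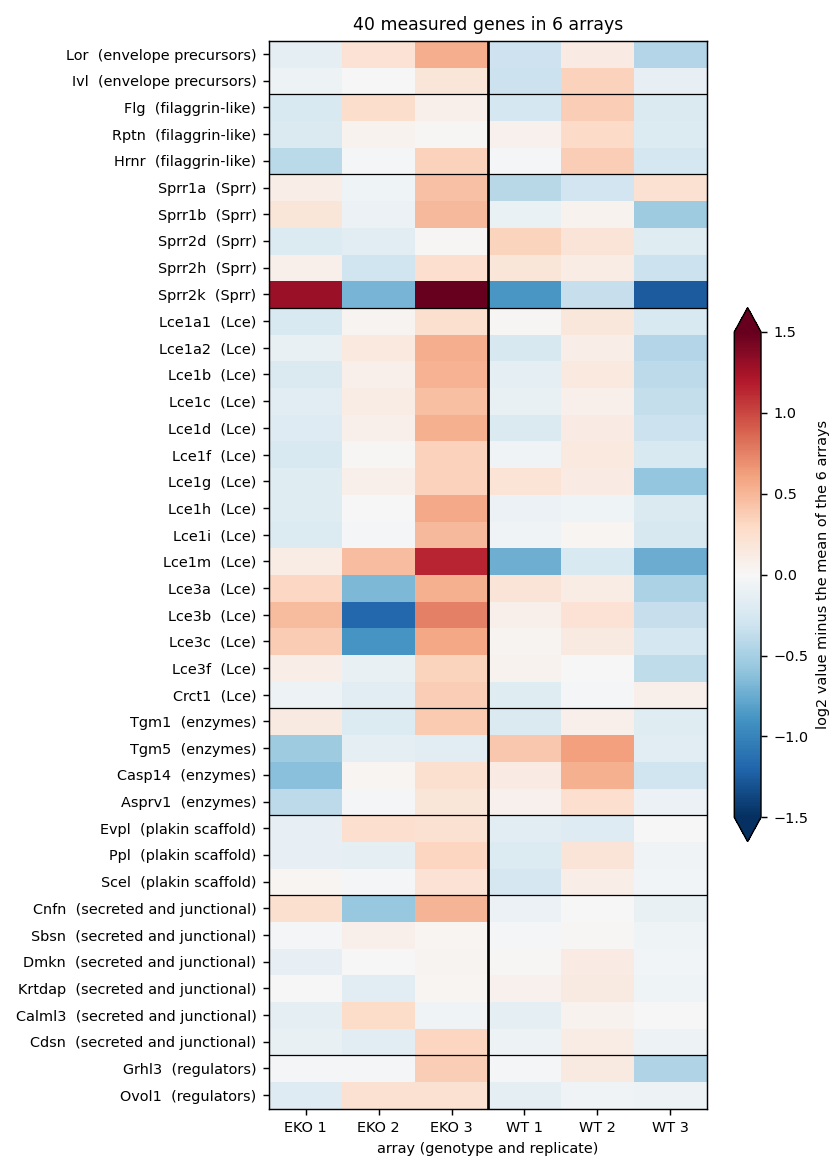
Heat map of the 40 measured members (rows, by group) in the 6 arrays (columns, EKO left of the black line); colour is the log2 value minus the gene's mean over the 6 arrays, and values past the ends of the colour scale take the end colour. EKO replicate 3 is red in most rows, the Lce3 rows are blue in EKO replicate 2, and Sprr2k and Lce1m have the largest difference between group means.

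The mean of a group's deviations from the 6-array mean gives 1 score per array. For the Lce1 branch the scores were -0.16, 0.10 and 0.52 in EKO replicates 1, 2 and 3, against -0.14, 0.06 and -0.37 in WT replicates. For Lce3 they were 0.32, -0.71 and 0.55 in EKO, against 0.09, 0.12 and -0.37 in WT replicates. The sharpest contrast between both Lce branches therefore lay in EKO replicate 2, where Lce3 was the lowest of the 6 arrays and Lce1 was not. The enzymes had scores of -0.36, -0.08 and 0.17 in EKO, against 0.09, 0.37 and -0.19 in WT replicates, so that EKO replicate 3 was above 2 of 3 WT arrays for them too.

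**Figure D5:**
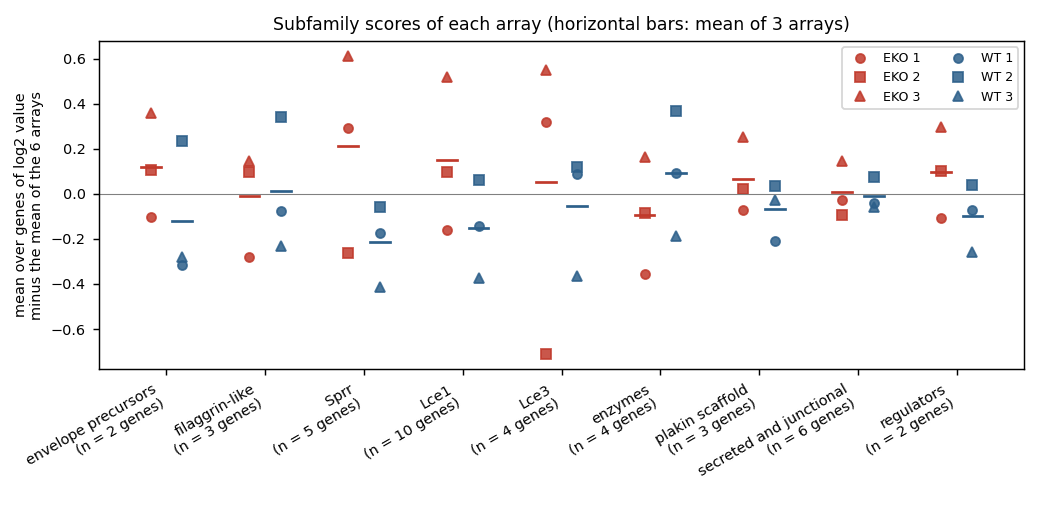
Scores of 9 groups of members in each array (mean over the group's genes of the log2 value minus the 6-array mean; EKO red, WT blue, shape by replicate, short lines the mean of 3 arrays). Every group overlaps between genotypes, EKO replicate 3 is the highest EKO array throughout, and Lce3 spans from -0.71 to 0.55 within EKO.

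EKO replicate 2 was left out in turn, as was every other array. Without it 42 genes passed (0.231% of all genes) and 0 members did. At an unadjusted p under 0.05, 7 members were then higher, or 17.5% (against 4.88% of all genes): Sprr2k, Sprr1b, Lce1m, Lce3b, Lce3c, Cnfn and Tgm1. Tgm5 alone was lower (against 4.18% of all genes). The groups did not overlap for 9 members that were higher, 22.5%, against 12.7% of all genes, and for 0 that were lower, against 12.2%. In both directions together, 8 members had an unadjusted p under 0.05 (20%, against 9.06% of all genes). Then 9 did not overlap (22.5%, against 24.9% of all genes), a share that was not above that of all genes. These counts rest on 2 EKO arrays. 

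With each other array left out, the members were counted in both directions together. Without EKO replicate 1, 5 members had an unadjusted p under 0.05 (12.5%, against 5.05% of all genes) and 8 did not overlap (20%, against 20% of all genes). Without EKO replicate 3 these counts were 1 (2.5%, against 6.4% of all genes) and 2 (5%, against 23.7%). Non-overlap between 2 and 3 arrays was thus common among all genes, and the members' share was not above it in either case. Without WT replicate 1 the counts were 1 (2.5%, against 4.61% of all genes) and 1 (2.5%, against 19.2%). Without WT replicate 2 they were 5 (12.5%, against 5.91% of all genes) and 8 (20%, against 20.8%). Without WT replicate 3 they were 4 (10%, against 9.9% of all genes) and 7 (17.5%, against 26.8%).

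Further genes of the cluster and of cornification were read from lists of related genes, and 0 of their members passed with all 6 arrays. Of 10 measured genes of the cluster outside the 44, 9 had a higher EKO mean, beside close to 50% of all genes. This count too depended on single arrays. Lelp1 and Sprr2f had a lower EKO mean without EKO replicate 3 (-0.09 and -0.06) and without WT replicate 3 (-0.03 and -0.23). Tchhl1 and Prr9 had one without WT replicate 1 (-0.61 and -0.04). Sprr3, a proline-rich gene typical of oral and oesophageal epithelium, read 10.76, 6.08 and 11.87 in EKO and 5.08, 5.57 and 4.98 in WT replicates (difference 4.36, limma adjusted p = 0.625). Sprr2j-ps read 10.33, 8.22 and 10.53 in EKO and 8.33, 8.40 and 7.12 in WT replicates. In both, as in Sprr2k, EKO replicate 2 was the lowest EKO value by far, just above the WT values in Sprr3 and among them in Sprr2j-ps.

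Of 18 measured genes of cross-linking and corneodesmosomes, 12 had a higher and 6 a lower EKO mean. Tgm3, the transglutaminase of hair follicle and upper epidermis, read 11.60, 9.57 and 12.07 in EKO and 8.96, 9.13 and 9.43 in WT replicates (1.91, limma adjusted p = 0.625). Without EKO replicate 2, Sprr3 (6.11, limma adjusted p = 0.00416) and Tgm3 (2.66, limma adjusted p = 0.0107) rose past the threshold. Over all alternatives the adjusted p of each ran up to 0.998. Klk7, a protease that cuts corneodesmosomes, differed by -0.38 with no overlap (limma adjusted p = 0.621). Without overlap, 2 of the 18 were higher and 1 lower, beside 5.78% and 6.19% of all genes.

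Of 22 measured transcription factors and partners of cornification, 10 had a higher and 12 a lower EKO mean. Nfe2l2, which encodes Nrf2, a factor known to raise Sprr2 and Lce genes in mouse epidermis, read 11.359, 10.620 and 11.649 in EKO and 10.635, 10.580 and 10.001 in WT replicates (0.80, limma adjusted p = 0.650). EKO replicate 2 lay within the WT range, as it did for Sprr2k. The other measured Sprr2 members, Sprr2h and Sprr2d, differed by 0.02 and -0.23. Among Sprr2 genes outside the members, Sprr2i read 12.30, 11.12 and 12.33 in EKO and 11.81, 11.62 and 10.79 in WT replicates. Its difference was 0.51 (limma adjusted p = 0.818), and EKO replicate 2 again lay within the WT range. Sprr2f differed by -0.24 without EKO replicate 1, 0.41 without EKO replicate 2 and -0.06 without EKO replicate 3. Whether Nfe2l2 has a part in any of these values was not tested. Ovol2 differed by 0.32 (no overlap), Pou2f3 by -0.30 (no overlap) and Cebpa by -0.35. Of 6 suprabasal keratins 5 had a higher EKO mean, among them Krt77 (1.77), Krt78 (1.42) and Krt2, which was near the floor in most arrays. Krt80 (-0.34) was lower. The groups did not overlap for Krt77, Krt78 and Krt80, and none of these passed (limma adjusted p from 0.546 to 0.621). Genes named here were picked by smallest p within their lists, and over all genes 5.78% were higher and 6.19% lower without overlap. Krt77 passed without EKO replicate 2 (1.34, limma adjusted p = 0.0107), and its adjusted p ran up to 0.998 over the alternatives. Of 11 measured basal keratinocyte genes, 8 had a higher and 3 a lower EKO mean, with a median difference of 0.09. Itga3 (0.39, limma adjusted p = 0.621) and Itga6 (0.26, limma adjusted p = 0.756) were higher without overlap, and 0 were lower without overlap.

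Markers of other cells in the digest also differed among arrays. Mean log2 levels of 19 hair follicle markers ran from 11.22 to 12.12 in EKO and from 9.75 to 12.63 in WT tumours, WT replicate 3 being highest, and 18 of the 19 had a higher EKO mean. For 10 skeletal muscle markers they ran from 6.35 to 7.62 in EKO and from 6.21 to 9.61 in WT tumours, with a lower EKO mean for all 10. For 15 leukocyte markers they ran from 8.19 to 8.27 in EKO and from 8.30 to 8.45 in WT tumours, with 3 of 15 higher in EKO by mean. For 11 fibroblast and endothelial markers they ran from 9.26 to 9.70 in EKO and from 9.32 to 9.76 in WT tumours, with 4 of 11 higher in EKO by mean. None of these markers stayed under the arrays' lower quartile throughout, and 0 passed. WT replicate 3, where 29 of 40 members had their lowest WT value, was the array with the highest hair follicle level, and EKO replicate 3, where 27 had their highest value of the 6, had the lowest hair follicle level of the EKO arrays. The other arrays did not keep this order. WT replicate 1, with the lowest hair follicle level (9.75), had the highest WT value in 5 members, and WT replicate 2 (10.39) in 32. EKO replicate 1 (11.87) had the lowest EKO value in 24 members, and EKO replicate 2 (12.12) in 16. The part of these cells in the members' values was not tested.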

How the data were processed

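Expression was measured on 6 Affymetrix arrays, 3 EKO and 3 WT, grouped by title and numbered there as biological replicates. The values are log2 signals as deposited. The submitters' processing notes name RMA and Partek 6.6. RMA subtracts a modelled background, gives all arrays 1 distribution and summarises probes, which narrows differences near the floor. No scan date or batch is given in the sources used here, and no detection calls were used, so no filter on low values was set.

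Of 45101 probe sets, 64 were controls, 34945 had 1 gene symbol in the platform annotation (dated, so names can be old), 932 had several and 9160 were unnamed here. The brightest probe set by mean of the 6 arrays stood for each of 18193 genes. 12 of the 40 measured members rest on a probe set with a suffix _x, _s or _a. The EKO and WT groups were tested with limma 3.58.1 under R 4.3.3 (two-sided, Benjamini-Hochberg over all genes, threshold 0.05), and the fit was tested on simulated data. Differences are EKO minus WT. All members were named, with Fabp5, the markers of the labelled cell type and up to 4 genes per further list by smallest p. The members, lists and tests were chosen with earlier results of these data known. Alternatives were a replicate block, genes in the upper 50% of means (all 40 members were kept), repeated quantile normalization, centred medians, weighted arrays, robust variances with a trend on intensity, averaged probe sets, only probe sets without a suffix (31 members), a threshold of 0.1 and each array left out. A Sprr median with the shared Sprr2a probe set was added after seeing the data. Start regions and gene order came from RefSeq tables of GRCm38.p6, and alignments used Biopython 1.88.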

Additional observations from a re-analysis of the deposited data

How the results depend on the processing

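Over the alternatives 0 members passed, and 20 of 40 members kept the sign of their difference under each of them, among them Sprr2k, Lce1m, Lor and Tgm5, while 20 changed it under at least 1. The number of genes past the threshold was 1 in most alternatives and ran from 1 to 42 with 1 array left out. The count of members with an unadjusted p under 0.05 ran from 1 to 8 with 1 array left out, and that of members without overlap from 1 to 9, while over all genes these shares ran from 4.61% to 9.9% and from 19.2% to 26.8%. Only probe sets without a suffix left 0 members without overlap, since Lce1m has none. The median difference of the members, 0.10, ran from 0.01 (without EKO replicate 3) to 0.19 (without WT replicate 2). The medians of the Sprr and Lce groups stayed above 0 throughout (0.17 to 0.43 and 0.03 to 0.31). So did those of the envelope precursors (0.12 to 0.42), plakin scaffold (0.04 to 0.19) and regulators (0.10 to 0.30). Those of the enzymes (-0.35 to 0.01), filaggrin-like genes (-0.19 to 0.14) and secreted and junctional genes (-0.0996 to 0.0757) took both signs as arrays were left out. With the shared Sprr2a probe set the Sprr median was 0.17. The cause was not tested. The labels name no pairing by replicate number. Deviations of same-numbered arrays correlated across genes at -0.07, -0.09 and -0.34, and those of differently numbered arrays at -0.19 to 0.26. With 3 arrays a group, such correlations cannot exclude a pairing. With a replicate block 1 gene and 0 members passed, with 3 members at an unadjusted p under 0.05 and 1 without overlap. Signal near the array maxima limits what can be read for Krtdap, Sbsn, Dmkn and the Sprr2a probe sets.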
